A study of Saccharomyces cerevisiae with 20 samples.

Results

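The 64 gene features described here are those whose ribosome footprints took a larger share of the library in the NIP1_depl strain of budding yeast than in any other strain of the series. A feature was a member when it held an expected count of 40 or more summed over the 4 NIP1_depl libraries, and when its mean there was at least 2 times the mean in each of RLI1_depl, hrc1D, arf1D and the MTF plus MTFi libraries, with 4 libraries in each set. Means were in counts per 1000000 of the library total (CPM). Of 7127 listed features, 654 reached the count minimum, and 64 of those, 9.79%, met all of the limits. The members were thus chosen by their CPM in NIP1_depl against the other sets, and these values are given as a description with no test. The tests concern the formyltransferase form, which the rule did not use.

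Ribosome profiling reads the RNA fragments that ribosomes protect from a nuclease. Here RNase I was used and the 80S fraction of a sucrose gradient was taken. The labels give fmt1 cells of Saccharomyces cerevisiae, grown at 30 °C in SC medium, that expressed the E. coli methionyl-tRNA formyltransferase (EcFMT) or its form EcFMTR42L, called R42L below. From 4 strains, labelled NIP1_depl, RLI1_depl, hrc1D and arf1D, came 16 libraries, 2 with EcFMT and 2 with R42L for each strain. The other 4 libraries were 2 of MTF and 2 of MTFi, names that the labels do not spell out and whose strain they do not give further. The fmt1 background was stated for all groups alike. The labels do not say how NIP1 or RLI1 was depleted or for how long, and do not call the replicates separate cultures. A p-value here reflects only how far these libraries spread, which may be technical.

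NIP1 encodes the c subunit of eIF3, the large initiation factor that binds the small ribosomal subunit, helps to bring in the initiator tRNA and the mRNA, and stays with the ribosome during scanning. RLI1 encodes the ATPase that splits ribosomes after termination, and HCR1, which the label hrc1D resembles, encodes the loosely bound j subunit of eIF3. ARF1 encodes a small GTPase of Golgi transport. The formyltransferase adds a formyl group to the methionine that the initiator tRNA carries, a step that bacteria use before they start translation.

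Library totals ranged from 58090 to 505676 expected counts, with 116661 to 174629 in NIP1_depl and 58090 to 123204 in RLI1_depl. In all, 95.99% of the counts lay on features that are absent from the RefSeq gene table, and the genes that the strain labels name held almost none. NIP1 held 2 counts over the 20 libraries, both in NIP1_depl, RLI1 and FMT1 held 0, HCR1 held 3.84 and ARF1 held 2.5. Depletion or deletion could not be checked from these counts. The strand setting of the counting is not stated, so reads of a feature and of a gene overlapping it on the other strand cannot be told apart. Counts under a gene's name are for this reason not read below as translation of that gene.

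The members took 3.10% ± 0.0570 of all counts in NIP1_depl (SD, n = 4), with a lowest library at 3.02% and a highest at 3.16%. The share was 1.04% ± 0.0710 in RLI1_depl, 0.420% ± 0.0333 in hrc1D, 0.302% ± 0.00957 in arf1D and 0.230% ± 0.0116 in the MTF and MTFi libraries. The 4 NIP1_depl libraries stood together, above all 16 others. A gap of at least 2 times between the mean shares is set by the rule itself. A share of a library cannot tell more footprints on these features from fewer on the rest, and in bulk cultures more signal per cell cannot be told from more cells with signal.

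RLI1_depl was the limit that few features passed. Of the 654 features with enough counts, 74 (11.3%) were at least 2 times higher in NIP1_depl than in RLI1_depl, against 379 (58.0%) for hrc1D, 484 (74.0%) for arf1D and 495 (75.7%) for MTF plus MTFi. RLI1_depl was the second highest set for 54 of the 64 members, hrc1D for 9 and MTF plus MTFi for 1, YDR210W-A. The ratio of NIP1_depl to the highest other set ran from 2.01 to 15.0, with a median of 2.86, beside a median of 0.803 over all 654 features. Applied to the other sets, the same rule gave 243 of 715 features in RLI1_depl, 7 of 487 in hrc1D, and 0 of 397 in arf1D and 0 of 378 in MTF plus MTFi. RLI1_depl also carried more counts on RefSeq features as a whole, 18.2% ± 2.55 of the library, than NIP1_depl with 9.80% ± 0.172 or hrc1D with 3.66% ± 0.299.

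**Figure D1:**
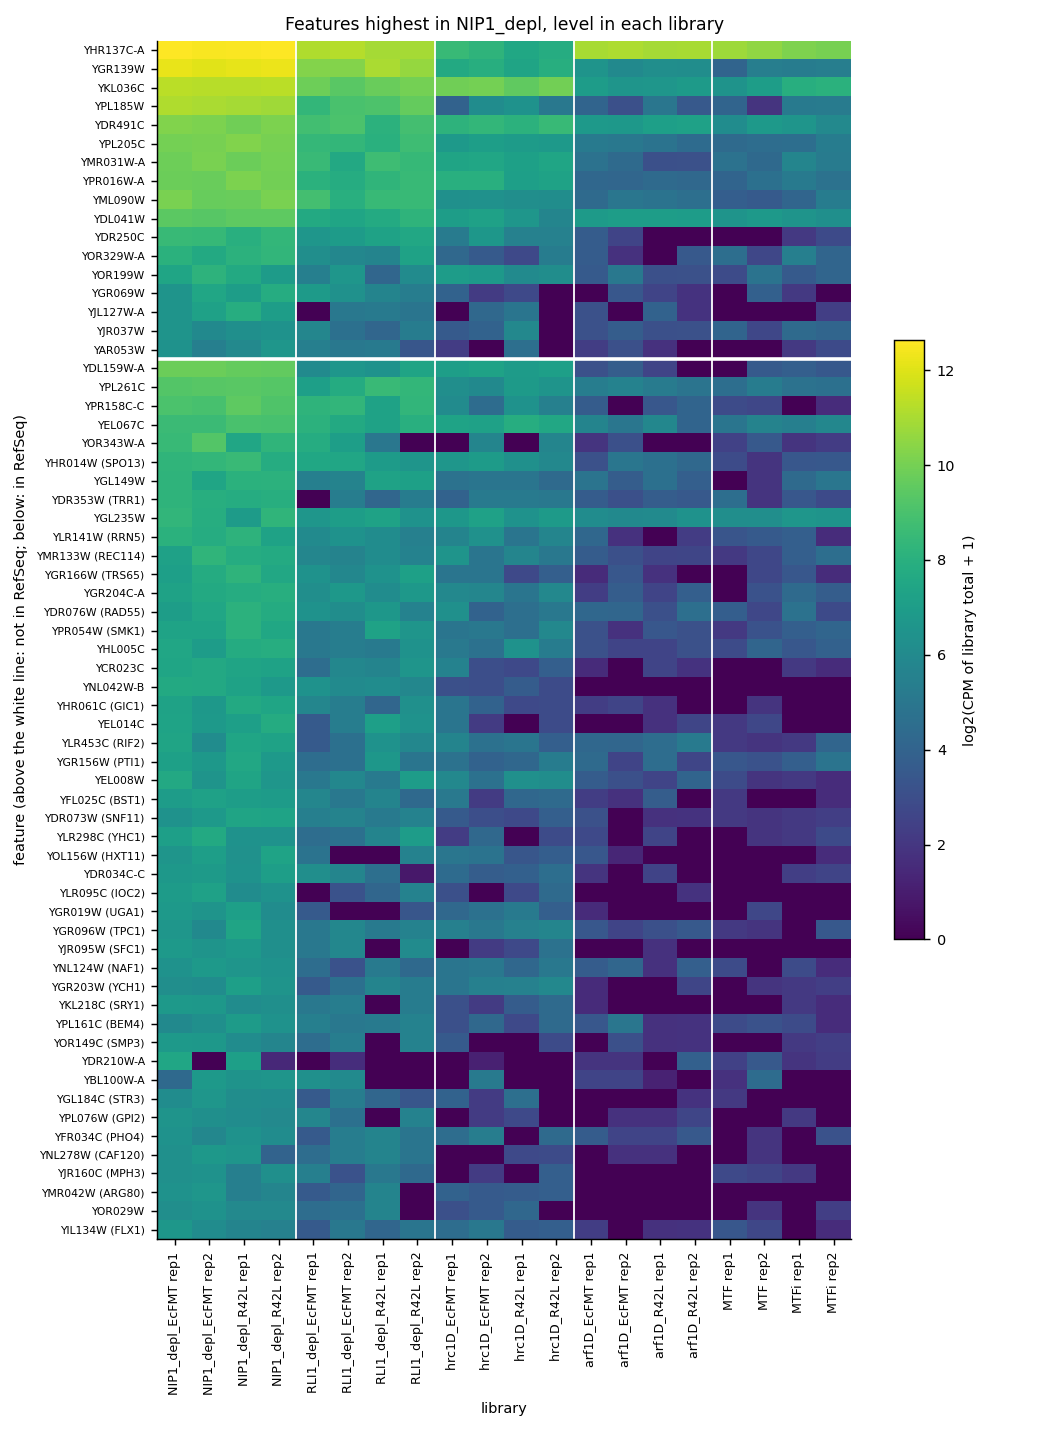
Level of the 64 features (rows) in the 20 libraries (columns), as log2 of CPM plus 1, with the 17 features not in RefSeq above the white line and the 47 in RefSeq below it. The 4 NIP1_depl columns at the left are all brighter than the other 16 in 49 of the 64 rows, RLI1_depl has the next highest mean in 54 rows, and a few rows such as YHR137C-A and YKL036C are bright in other strains too.

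**Figure D2:**
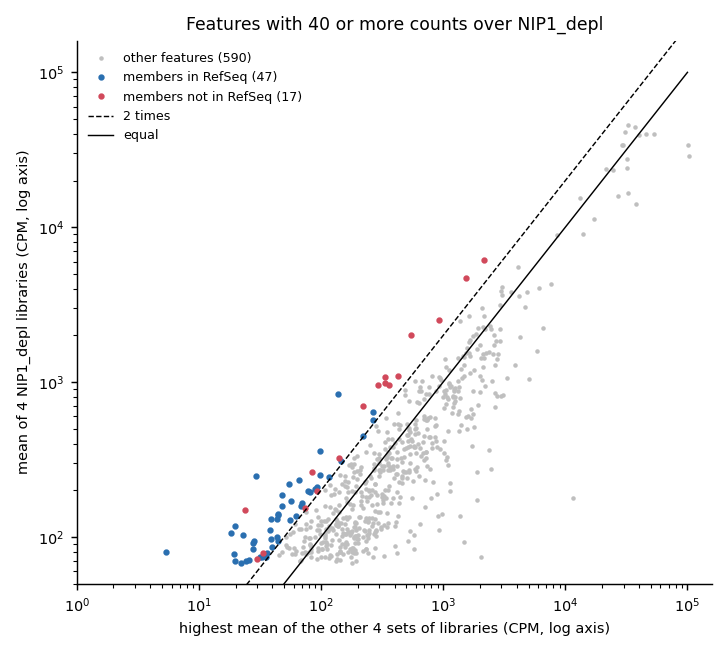
Mean of the 4 NIP1_depl libraries (vertical axis, CPM, log axis) against the highest of the other 4 set means (horizontal axis, CPM, log axis) for the 654 features with at least 40 counts. The 64 coloured members lie on or above the dashed line of 2 times, and the 590 other features, in grey, centre below the line of equality, with a median ratio of 0.803 over all 654.

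The rule pooled the libraries, so each member was also read library by library. In 49 of 64 members (76.6%) the lowest NIP1_depl library was above the highest of the 16 others, which was so for 12.7% of all 654 features. Since the means of the same libraries chose the members, that count is a description. When features were chosen with the replicate 1 libraries alone, 72 met the rule, and 46 of them (63.9%) were again at least 2 times higher than every other set in the replicate 2 libraries, beside 9.42% of the 669 features with enough counts. Chosen with replicate 2, 44 of 67 (65.7%) held in replicate 1, beside 9.20% of 663. The 64 members themselves were chosen on both replicates, which may be technical, so these counts describe how far the replicates agree and are no independent support for the list.

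The members with the most counts were features that RefSeq does not list, and 17 of the 64 were of this kind. Their own coordinates are not used here. The gene on the opposite strand was read from the order of the systematic names, in which W and C give the strand. That order was checked on 5988 pairs of RefSeq neighbours, of which 98.4% also adjoin by coordinates. In this way 9 of the 17 had 1 opposite neighbour, 7 had 2 candidates and 1 had none. For these 17, between and beside mean this order of names below, which does not exclude an overlap with a neighbour.

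YHR137C-A lay opposite ARO9 (RefSeq R64, chromosome VIII, 375709 to 377250), which encodes an aromatic aminotransferase. At 651 nt it was longer than the 104 nt between its neighbours, so that it must overlap them by at least 547 nt. It stood at 6345 and 5791 CPM in the NIP1_depl libraries with EcFMT and at 6103 and 6180 CPM in those with R42L. RLI1_depl gave 2225 and 2419 CPM with EcFMT and 1980 and 1945 CPM with R42L. The arf1D libraries were almost as high, at 1941 to 2162 CPM, the MTF and MTFi libraries lay at 1050 to 1750 CPM, and hrc1D was far lower at 180 to 360 CPM. No group overlapped NIP1_depl, and the order of the rest was unlike that of most members, in that arf1D and MTF stood well above hrc1D. ARO9 held 108 counts under its own name over all libraries, and 0 in NIP1_depl.

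YGR139W had TPO2 as its only opposite neighbour (chromosome VII, 763762 to 765606), which encodes a polyamine exporter of the plasma membrane. Its levels were 4793 and 4352 CPM with EcFMT and 4541 and 4991 CPM with R42L in NIP1_depl. In RLI1_depl they were 1264 and 1242 CPM with EcFMT and 2066 and 1571 CPM with R42L. Outside these strains the feature was low, at 163 to 241 CPM in hrc1D, 61.7 to 92.9 CPM in arf1D and 16.1 to 41.0 CPM in MTF and MTFi. The mean in NIP1_depl was 3.04 times that in RLI1_depl and 137 times that in MTF and MTFi.

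YKL036C lay between UGP1 (chromosome XI, 369891 to 371390), which encodes UDP-glucose pyrophosphorylase, and AIM26 (369365 to 369721), both on the other strand, and its 393 nt exceed the gap by at least 224 nt. Its NIP1_depl libraries lay close together, with 2583 and 2476 CPM under EcFMT and 2469 and 2530 CPM under R42L. Here hrc1D, at 738 to 1001 CPM, and RLI1_depl, at 666 to 1006 CPM, overlapped, and the mean in NIP1_depl was 2.74 and 2.94 times theirs. UGP1 held 0 counts under its own name and AIM26 held 434.

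YPL185W lay between UIP4 (chromosome XVI, 194512 to 195426) and MRN1 (195950 to 197788), which encodes an RNA-binding protein. The NIP1_depl libraries gave 2272 and 2116 CPM with EcFMT and 1920 and 1802 CPM with R42L. RLI1_depl ranged from 324 to 795 CPM, hrc1D from 14.7 to 87.2 CPM, arf1D from 7.41 to 29.6 CPM and MTF with MTFi from 2.73 to 36.6 CPM. The ratio was 3.72 to RLI1_depl and 39.8 to hrc1D, so this feature was high in the 2 depletion strains and low in the other sets.

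A further set of features not in RefSeq had the starts of well-known genes as their nearest opposite neighbours. YDR491C lay beside IZH1 (chromosome IV, 1434924 to 1435874), of zinc homeostasis, and had 960 to 1208 CPM in NIP1_depl, 275 to 536 CPM in RLI1_depl and 279 to 365 CPM in hrc1D. YPL205C lay beside HRR25 (chromosome XVI, 164276 to 165760), a casein kinase, and had 1008 to 1226 CPM against 258 to 412 CPM in RLI1_depl. YMR031W-A lay beside EIS1 (chromosome XIII, 332212 to 334743), of the eisosome, and had 874 to 1107 CPM against 195 to 413 CPM. In each of these features the lowest NIP1_depl library was above every other library.

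YPR016W-A lay between TIF6 (chromosome XVI, 592332 to 593069), whose protein keeps the subunits apart while the large one matures, and DSS4 (593486 to 593917). Its levels were 899 and 853 CPM with EcFMT and 1114 and 981 CPM with R42L in NIP1_depl, against 227 to 364 CPM in RLI1_depl. YML090W had RPM2 (chromosome XIII, 87123 to 90731), the protein of mitochondrial RNase P, as its opposite neighbour and stood at 818 to 1082 CPM against 252 to 459 CPM in RLI1_depl. YDL041W lay between SIR2 (chromosome IV, 376757 to 378445), a histone deacetylase of silencing, and NAT1 (378874 to 381438), of the NatA N-terminal acetyltransferase. It stood at 649 to 728 CPM against 170 to 297 CPM in RLI1_depl, and arf1D, at 117 to 128 CPM, lay inside the range of hrc1D, 52.1 to 149 CPM.

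The other 7 features not in RefSeq had fewer counts. YDR250C, beside PAM1 (chromosome IV, 960614 to 963106), ranged from 248 to 361 CPM in NIP1_depl and from 97.2 to 192 CPM in RLI1_depl. YOR329W-A, between SCD5 and MIP1, the mitochondrial DNA polymerase gene, ranged from 205 to 314 CPM against 51.6 to 153 CPM. YJL127W-A, between MCO6 and SPT10, a regulator of histone genes, had one of the largest ratios of the list, 6.29, with 91.6 to 231 CPM in NIP1_depl and 0 to 34.4 CPM in RLI1_depl. These 3 kept NIP1_depl apart from the rest, and MCO6 held 804 counts under its own name over all libraries.

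YOR199W, between BFR1 and MRM1, had 197 CPM ± 70.2 in NIP1_depl (SD, n = 4) and 93.3 CPM ± 30.0 in hrc1D. YGR069W, beside ART5, an arrestin-related adaptor, had 155 CPM ± 56.9 in NIP1_depl and 73.5 CPM ± 35.4 in RLI1_depl. YJR037W, beside the ubiquitin ligase gene HUL4, had 79.1 CPM ± 12.0 against 33.5 CPM ± 16.3. YAR053W, which had no opposite neighbour and sits in a gap of 10123 nt between RefSeq genes, had 72.0 CPM ± 25.7 against 29.9 CPM ± 14.3. In 3 of these 4 features, all but YJR037W, the lowest NIP1_depl library did not clear the highest of the others.

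The remaining 47 members are RefSeq features with coordinates, and 2 of them overlapped a gene on the other strand by 30 nt or more. YGL235W (chromosome VII, 55279 to 55815) shared 518 nt with MTO1, of mitochondrial tRNA modification, and YEL067C (chromosome V, 26189 to 26776) shared 56 nt with HPA3, an acetyltransferase gene. Both were among the members nearest the limit. YGL235W had 120 to 321 CPM in NIP1_depl and 86.2 to 155 CPM in RLI1_depl, at a ratio of 2.09, and the 2 ranges overlapped. YEL067C had 384 to 514 CPM against 155 to 281 CPM, at a ratio of 2.01. CAF120, of the CCR4-NOT complex, had a ratio of 2.07. The lowest NIP1_depl library of CAF120, at 15.3 CPM, was below the highest RLI1_depl library, at 51.6 CPM. Just outside stood HSL1 at 1.99, THI21 at 1.92 and IAH1 at 1.92.

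Several short RefSeq members met or faced the start of a gene on the other strand. YDL159W-A (chromosome IV, 172182 to 172313) lies 251 nt from the start of DHH1, the RNA helicase of mRNA decapping. It had 876 and 875 CPM with EcFMT and 806 and 774 CPM with R42L in NIP1_depl, against 64.8 to 163 CPM in RLI1_depl, 122 to 153 CPM in hrc1D and at most 13.0 CPM in the other 8 libraries. At 6.08 times the next set it stood well clear, and the lowest NIP1_depl library was 4.75 times the highest of the others. Per length, on the deposited TPM scale, it had 3104 ± 208 TPM in NIP1_depl (SD, n = 4). Only YGR139W at 5821 ± 361 TPM and YHR137C-A at 3799 ± 160 TPM were higher among the 64.

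Another 3 members shared exactly 2 nt with the start of a gene on the other strand. YPL261C (chromosome XVI, 48996 to 49304) did so with CUB1 and had 613 to 669 CPM in NIP1_depl against 140 to 379 CPM in RLI1_depl. YGL149W (chromosome VII, 225572 to 225877) did so with INO80, the gene of a chromatin remodeller, and had 169 to 292 CPM against 43.2 to 155 CPM. YHL005C (chromosome VIII, 98828 to 99220) did so with MRP4, of the mitochondrial ribosome, and had 127 to 230 CPM against 32.4 to 86.2 CPM. The gene whose start each met held 4 counts, 0.99 counts and 0 counts over the 20 libraries. YEL008W, whose nearest opposite start was that of GCN4, the activator of amino acid synthesis genes, lay 748 nt from it. It had 137 CPM ± 49.8 in NIP1_depl, 62.0 CPM ± 43.1 in RLI1_depl and 59.3 CPM ± 24.4 in hrc1D. Its lowest NIP1_depl library, at 91.7 CPM, was below the highest RLI1_depl library, at 125 CPM.

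**Figure D3:**
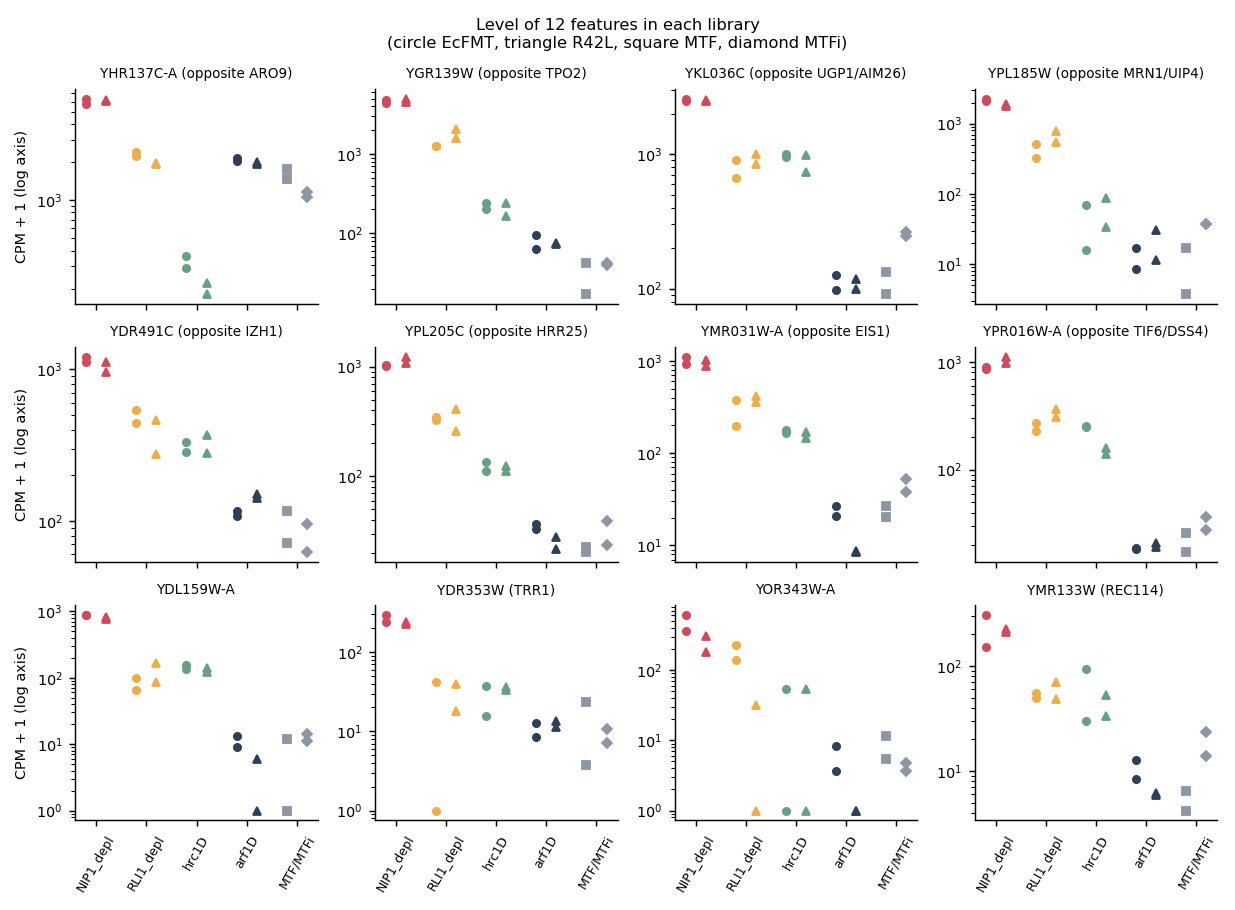
CPM plus 1 (log axis) of 12 members in each library, with the strain on the horizontal axis, circles for EcFMT, triangles for R42L, squares for MTF and diamonds for MTFi. For 11 of the 12 the NIP1_depl points lie above all others, and for YOR343W-A the lowest of them, 177 CPM, falls below the highest RLI1_depl point, 228 CPM.

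Among RefSeq members with a gene symbol, TRR1, the cytoplasmic thioredoxin reductase gene (chromosome IV, 1183299 to 1184258), was the furthest from the other strains after YDR210W-A. It had 292 and 240 CPM with EcFMT and 223 and 238 CPM with R42L in NIP1_depl. RLI1_depl gave 0, 40.6, 17.2 and 38.3 CPM, hrc1D gave 14.7 to 36.4 CPM, and the other 8 libraries gave at most 22.5 CPM. The ratio to hrc1D, the next set, was 8.37. HXT11, of the hexose transporter family, had 82.5 to 161 CPM against 0 to 47.9 CPM in RLI1_depl and 9.24 to 30.1 CPM in hrc1D, at a ratio of 5.98.

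Genes of meiosis and spore formation among the members were SPO13, which acts in the first meiotic division, REC114, of meiotic double-strand breaks, and SMK1, a sporulation kinase. SPO13 had 308 CPM ± 64.3 in NIP1_depl, 145 CPM ± 43.4 in RLI1_depl and 89.9 CPM ± 26.2 in hrc1D. REC114 had 221 CPM ± 63.7 against 54.8 CPM ± 9.73 in RLI1_depl, and SMK1 had 195 CPM ± 53.8 against 80.9 CPM ± 56.8. For all 3 the lowest NIP1_depl library was above the highest of the others. These groupings by role were made after the values were seen and were not tested.

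Members of nuclear functions included RRN5, of the upstream factor of RNA polymerase I, at 232 CPM ± 59.3 against 65.8 CPM ± 17.1 in RLI1_depl, and RAD55, of recombinational repair, at 199 CPM ± 60.4 against 77.7 CPM ± 23.4. SNF11, of SWI/SNF, had 131 CPM ± 37.8 against 43.6 CPM ± 6.55. IOC2, of an ISW1 complex, had 106 CPM ± 35.4 against 18.3 CPM ± 20.9. RIF2, of telomere length control, PTI1, of the cleavage and polyadenylation factor, YHC1, of the U1 particle, NAF1, of H/ACA particle assembly, PHO4, the phosphate regulator, and ARG80, the arginine regulator, had means of 70.3 to 140 CPM. Of the 10, RIF2, YHC1 and ARG80 had a NIP1_depl library below the highest other library.

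Members of the membrane and carrier genes were BST1, SMP3 and GPI2, of the glycosylphosphatidylinositol anchor, TPC1, SFC1 and FLX1, mitochondrial carriers, MPH3, a maltose permease, and TRS65, of the TRAPP vesicle tether. TRS65 had 210 CPM ± 64.1 in NIP1_depl against 93.3 CPM ± 36.4 in RLI1_depl, and BST1 had 131 CPM ± 11.4 against 39.3 CPM ± 16.5. The means of the other 6 in NIP1_depl ran from 67.8 to 100 CPM, with ratios of 2.28 to 3.06. In this set TRS65 and MPH3 had a NIP1_depl library below the highest other library.

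Metabolic and polarity genes were UGA1, the GABA transaminase, at 103 CPM ± 29.3 against 22.9 CPM ± 9.45 in hrc1D, SRY1, which breaks down 3-hydroxyaspartate, STR3, of methionine synthesis, YCH1, a phosphatase, and GIC1 and BEM4, which act with Cdc42. GIC1 had 159 CPM ± 41.3 against 47.9 CPM ± 26.1 in RLI1_depl. The means of the other 4 ran from 77.1 to 93.5 CPM, and all 6 kept their lowest NIP1_depl library above the rest. YGR204C-A, YCR023C, YNL042W-B, YEL014C and YOR029W are RefSeq features to which no role is given here. They had means of 70.1 to 205 CPM and ratios of 2.29 to 3.04. Of these, YEL014C had NIP1_depl libraries, the lowest at 113 CPM, below the highest RLI1_depl library at 138 CPM.

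Of the members, 5 lie wholly inside a longer RefSeq gene on the same strand, and their values are uncertain. They are YOR343W-A, YBL100W-A, YDR210W-A and YDR034C-C, of 1317 nt, inside YOR343W-B, YBL100W-B, YDR210W-B and YDR034C-D, and YPR158C-C, of 1323 nt, inside YPR158C-D. The first 4 had expected counts that were not whole, to within 0.001, in 12 to 16 of the 20 libraries. Such values are what a counter leaves when it splits reads among features. YPR158C-C had them in 3 libraries, so lying inside a longer gene did not by itself go with many such values. Members outside such genes also had values that were not whole, RRN5 in 12 libraries, HXT11 and MPH3 in 9, YOR199W in 7 and YGR069W in 5, and their values carry the same uncertainty. In NIP1_depl the libraries of some of the 4 disagreed. YDR210W-A had 179 and 0 CPM with EcFMT and 140 and 1.76 CPM with R42L in NIP1_depl, so that the largest ratio of the list, 15.0, rests on 1 library of each form. YBL100W-A had 18.7 and 114 CPM with EcFMT and 88.1 and 94.0 CPM with R42L. YDR034C-C was steadier, with 105 and 115 CPM with EcFMT and 85.4 and 136 CPM with R42L, and so was YPR158C-C, at 494 to 711 CPM against 155 to 317 CPM in RLI1_depl.

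The levels were also summed over all 10 features of 1317 nt, 4 of them members. Relative to their level, the NIP1_depl replicates of the sum lay closer than those of YOR343W-A and YDR210W-A. They were not closer than those of YBL100W-A with R42L or of YDR034C-C with EcFMT. The sum in NIP1_depl was 1069 CPM ± 133 with EcFMT and 914 CPM ± 223 with R42L (SD, n = 2). In RLI1_depl it was 529 CPM ± 39.6 with EcFMT and 793 CPM ± 72.7 with R42L, so that its ratio of NIP1_depl to RLI1_depl was smaller than for each of the 4 members alone. Over the 31 features of 1323 nt, 1 of them a member, the sums in NIP1_depl, 1797 CPM ± 62.5 and 1915 CPM ± 89.6, were below those in RLI1_depl, 2205 CPM ± 302 and 2542 CPM ± 138.

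Some properties that the rule did not use set the members beside the other 590 features with enough counts. Features absent from RefSeq were 17 of 64 members (26.6%) and 336 of the 590 others (57.0%). Of those absent from RefSeq, 2 of 17 members were longer than the gap between their neighbours, against 160 of 336 others (47.6%). Where the gap could hold the feature, 14 of 15 members and 91.5% of the 176 others had a gene start facing them, a share near the background. Among RefSeq features without an overlap, 30 of 45 members (66.7%) and 110 of 233 others (47.2%) faced the start of an opposite-strand gene. The median length was 770 nt for members and 437 nt for the others. None of these shares was tested.

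On the RefSeq side alone, the 47 members took 8.81% ± 0.431 of all RefSeq counts in NIP1_depl (SD, n = 4). That share was 1.63% ± 0.141 in RLI1_depl, 4.26% ± 0.259 in hrc1D, 2.63% ± 0.223 in arf1D and 2.82% ± 0.669 in MTF with MTFi. Within RefSeq counts the order of the other sets thus differed from that over whole libraries, with RLI1_depl lowest.

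Scaling moved part of the list. Because the composition of the libraries differed so much, the TMM scaling factors ran from 0.362 to 3.33. With CPM of TMM-scaled libraries the same rule gave 66 features, 44 of them among the 64, and with RLE scaling 80 features, 55 of them among the 64. Under both, 44 stayed in the list, 11 of the 17 not in RefSeq and 33 of the 47 in RefSeq. YHR137C-A fell to 0.719 of the highest other set under TMM and stood at 1.17 under RLE. YKL036C stood at 1.32 and 1.79, YOR199W at 0.997 and 1.40, and YGL235W at 0.636 and 0.981. Under TMM YHR137C-A and YGL235W thus fell below the highest other set, and YOR199W was level with it. Under RLE only YGL235W was below 1, by little. Against RLI1_depl all 64 kept at least 2 times under all 3 scalings. Their median ratio was 2.94 by library totals, 4.27 with TMM and 3.89 with RLE. Over the 654 features it was 0.868, 1.25 and 1.15. Since TMM and RLE raised this ratio at large, the outcome followed mostly from the rule and is no further support for the list.

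**Figure D4:**
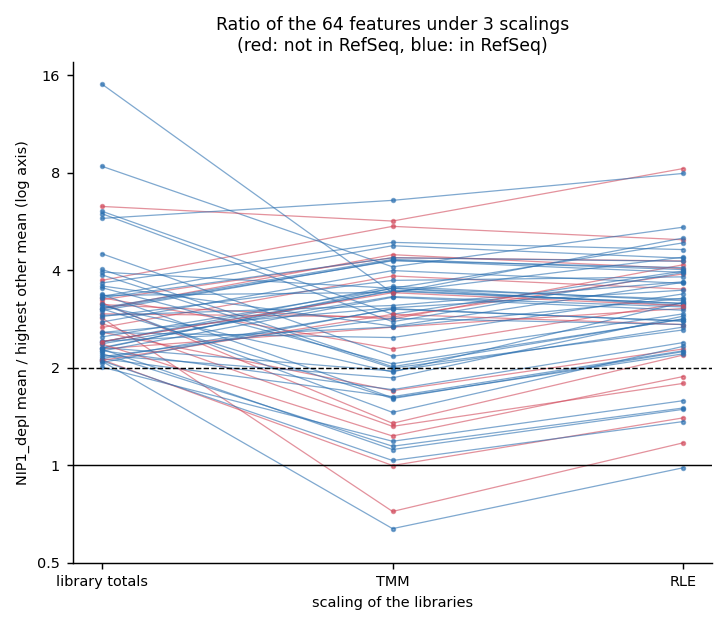
Ratio of the NIP1_depl mean to the highest other set mean (log axis) for each of the 64 features under library totals, TMM and RLE, with red lines for features not in RefSeq and blue for RefSeq features. All start above the dashed line of 2 by construction, 20 fall below it under TMM and 9 under RLE, and 3 lie below 1 under TMM.

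The list also depended on single libraries. Without NIP1_depl EcFMT replicate 1, 42 features met the rule with the minimum of 40 counts unchanged, and without the other libraries in turn up to 65 did. All in all 34 members stayed in the list whichever library was left out, and 26 did so and also stayed under TMM and RLE. With the EcFMT libraries of the 4 strains alone and with the R42L libraries alone, each with a minimum of 20 counts, 30 of the 64 were found by both. Among the features not in RefSeq, 13 of 17 were kept without each library in turn.

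The enzyme form was compared within NIP1_depl, EcFMT minus R42L, with edgeR's quasi-likelihood test over 1401 features that passed its filter on low counts, all 64 members among them. The members as a whole took 3.09% ± 0.0978 of the counts with EcFMT and 3.10% ± 0.00934 with R42L (SD, n = 2). None of the 64 was called at a Benjamini-Hochberg adjusted p under 0.05, and none of the 1401 was, so that the background was 0%. At an unadjusted p under 0.05 edgeR gave 1 of 64 members and 43 of 1401 features, and DESeq2 called 0 members. The median log2 difference was 0.10 over the members and 0.07 over all features tested, with members from -0.61 to 1.08.

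The intervals set what this comparison could have shown. The 95% interval of the difference lay within 1.5-fold either way for 7 of the 64 members and within 2-fold for 18, so that for the other 46 a 2-fold difference was not excluded. YHR137C-A, opposite ARO9, differed by 0.08 on the log2 scale (95% interval -0.21 to 0.36), YGR139W, beside TPO2, by 0.04 (-0.28 to 0.35) and YKL036C, beside UGP1, by 0.11 (-0.22 to 0.44). For these features a change of 1.5-fold or more between the enzyme forms was outside the interval.

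The smallest p-values in the direction of EcFMT were those of YOR343W-A, with a log2 difference of 1.07 (SE 0.43, unadjusted p = 0.0158), YHC1, with 1.08 (SE 0.57), and YPL185W, between UIP4 and MRN1, with 0.33 (SE 0.19). In the direction of R42L they were those of YEL067C, with -0.30, RAD55, with -0.58, and SNF11, with -0.61. All 6 had an adjusted p of 1 by edgeR's quasi-likelihood test. YPL185W was higher in both EcFMT libraries than in either R42L library, and so was YHC1, with 137 and 205 CPM against 85.7 and 84.3 CPM.

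**Figure D5:**
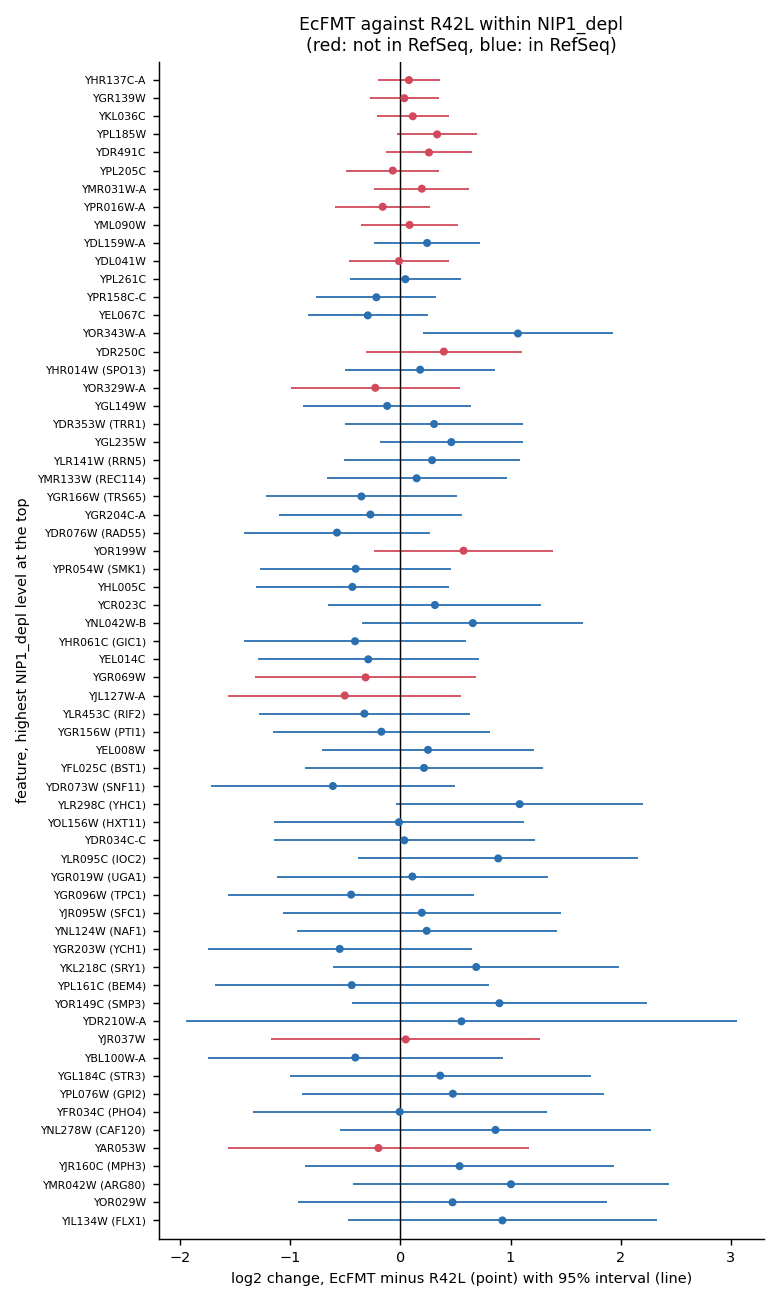
Log2 difference between EcFMT and R42L within NIP1_depl for each member (points), with its 95% interval (lines), in the order of the NIP1_depl level, red for features not in RefSeq and blue for RefSeq features. Nearly all intervals cross 0 and widen towards the bottom, where counts are low, and the points run from -0.61 to 1.08.

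In the other strains the same comparison called 2 members, both in RLI1_depl and both higher with EcFMT, 2 of 64 against 2.57% of the 1401 features in that direction. Over both directions 3.21% of the features were called, and 0.642% were lower with EcFMT. YOR343W-A had 228 and 136 CPM with EcFMT and 31.2 and 0 CPM with R42L, a log2 difference of 3.94 (SE 0.93, adjusted p = 0.00451). Without R42L replicate 2 its call was lost, at a log2 difference of 2.67 (adjusted p = 0.256), and without R42L replicate 1 the difference was 6.90. YBL100W-A had 81.2 and 64.4 CPM against 0 in both R42L libraries, at least 3.88-fold higher against a floor of 3 counts over the group (adjusted p = 0.0129). That call was lost without EcFMT replicate 1 (adjusted p = 0.0894), R42L replicate 1 (0.157) or R42L replicate 2 (0.328), and with no filter on low counts (0.0996). Both are among the features of 1317 nt with counts that are not whole, and the sum over the 10 features of that length went the other way, 529 CPM with EcFMT and 793 CPM with R42L, as given above. In hrc1D and arf1D none of the 64 was called, and none of the 1401 features was (0%). At an unadjusted p under 0.05 edgeR gave 4 members in hrc1D (6.25%), beside 4.14% of the 1401 features. In arf1D it gave 6 members (9.38%), beside 2.93% of the features. The difference between these shares was not tested, and DESeq2 called 0 members in each strain. The rule requires members to be low in arf1D, and the 6 rest on few counts there. YMR031W-A had the most, 21 with EcFMT and 6 with R42L, and YDR250C had 8 and 0.

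Averaged over the 4 strains, 2 members were called higher with EcFMT, beside 0.357% of all features, which are 5 of 1401. YHR137C-A, opposite ARO9, differed by 0.34 on the log2 scale (SE 0.09, adjusted p = 0.035). Its difference was 0.08 in NIP1_depl, 0.53 in RLI1_depl, 0.68 in hrc1D and 0.08 in arf1D. The sign in NIP1_depl turned with library totals, with no filter on low counts and without EcFMT replicate 1, at -0.01, -0.02 and -0.01. The call was lost without most single libraries, where the adjusted p ran from 0.0393 to 0.36, and with library totals, where the difference was 0.25 (adjusted p = 0.119). YBL100W-A, called with an adjusted p of 0.0296, is one of the uncertain features of 1317 nt and is at 0 in both hrc1D libraries with R42L as well. Its call was lost without 11 of the 16 single libraries and with no filter on low counts (adjusted p = 0.0626). The adjusted p without single libraries ran from 0.0131 to 1, the latter without hrc1D EcFMT replicate 2, where the log2 difference fell from 3.08 to 1.79.

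The difference between the enzyme effect in NIP1_depl and the mean of the effects in the other 3 strains was tested in the same fit. No member and no other feature was called (0% of 1401). At an unadjusted p under 0.05 there were 3 members and 54 features of all. The 3 were YBL100W-A at -4.65 (adjusted p = 0.263), YPL185W at 0.91 and IOC2 at 3.09, the last 2 with an adjusted p of 1 by edgeR's quasi-likelihood test. YBL100W-A held 0 counts in RLI1_depl and in hrc1D with R42L. IOC2 held 0 in arf1D and 1 in RLI1_depl with EcFMT. Against such groups the log2 values of YBL100W-A and IOC2 are not sizes of an effect. An enzyme effect particular to NIP1_depl was therefore not detected for these features at this depth.

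Between MTF and MTFi, 3 members were called and all 3 were lower in MTF, beside 1.43% of the features in that direction, 0.286% in the other and 1.71% in all. The 2 MTF libraries differed more from each other than those of the other groups, at a chi-square of 8.59 for each degree of freedom, which was 1.46 to 2.88 elsewhere. YKL036C, beside UGP1, had 90.1 and 131 CPM in MTF and 244 and 264 CPM in MTFi, a log2 difference of -1.29 (SE 0.24, adjusted p = 1.91e-05). YPL185W had 16.1 and 2.73 CPM against 35.7 and 36.6 CPM (-2.11, SE 0.59, adjusted p = 0.0306), and the call was lost without MTFi replicate 2 (adjusted p = 0.278) and without MTF replicate 2 (0.659). It was also lost with no filter on low counts, with features absent from RefSeq alone, with only the libraries compared and with DESeq2, at adjusted p of 0.0951 to 0.113. YGL149W, at the start of INO80, rested on 1 count in MTF and 21 in MTFi, 17.8-fold higher in MTFi with an exact 95% interval of 2.86 to 734 for counting error (adjusted p = 0.0114). This call was lost without MTFi replicate 2 (adjusted p = 0.267), MTF replicate 1 (0.23) or MTF replicate 2 (0.0639), with log2 differences of -6.83 to -3.22 over the 4 fits that left out a library. Of the 3 members, only YKL036C was called in all 4.

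Genes opposite the members were looked up in lists of genes in translation and metabolism. Opposite here took an overlap of at least 30 nt for RefSeq features and the order of names for the others. Of the 47 RefSeq members only 2 could thus be counted, and those that only face a gene could not. For each list the features with at least 40 counts in NIP1_depl that lie opposite one of its genes were counted. The members among them were 1 of 6 for Gcn4 targets and amino acid synthesis, and 1 of 5 for glycolysis and gluconeogenesis. The features were YHR137C-A, opposite ARO9, and YKL036C, beside UGP1. Members were 1 of 10 for ribosome biogenesis, YPR016W-A beside TIF6. They were 0 of 16 for ribosomal proteins, 0 of 4 for initiation factors other than eIF3, 0 of 2 for elongation and termination, 0 of 4 for tRNA synthetases, 0 of 6 for RNA polymerases and 0 of 6 for chaperones. They were 0 of 3 for the iron and copper regulon, 0 of 2 each for cell wall, mating and cell cycle, proteasome and ubiquitin, and lipid synthesis, and 0 of 1 for vesicle transport. For background, features absent from RefSeq with 1 opposite neighbour were 9 members and 177 others, and those with 2 were 7 and 155. RefSeq features with an overlap were 2 members and 21 others. In each class members were a smaller share than the 9.79% over all 654 features. The low counts for the lists are therefore not read as a trait of the members or of the listed genes. No feature with 40 counts lay opposite an eIF3 subunit or a phosphate gene. Under their own names only PHO4, 1 of 3 features of the phosphate list with enough counts, was a member.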

How the data were processed

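Ribosome footprints of 20 libraries in 10 groups of 2 were analysed. The aligner was STAR 2.7.2b, the counter RSEM 1.2.31 and the build R64, per the submitters' processing notes. The deposited values are RSEM expected counts per feature, not scaled for depth, and TPM, scaled by the authors for length and depth. Totals, CPM and shares were computed on the unrounded expected counts. Floors (3 counts) and the exact interval of the count ratio between MTFi and MTF cover counting error only. Intervals of log2 differences come from the standard errors of the edgeR fit described below, which also take in the spread between replicates. The precision follows from totals of 58090 to 505676 counts per library.

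For tests, expected counts were rounded, RNA genes were left out and 6703 features kept. edgeR 4.0.16 (quasi-likelihood, robust prior, R 4.3.3, limma 3.58.1) was fitted on all 20 libraries with 1 mean per group, 10 residual degrees of freedom, TMM factors and filterByExpr at a minimum count of 10. Adjustment was by Benjamini-Hochberg over all 1401 features tested, and the common biological coefficient of variation was 0.111. A standard error is the absolute log2 difference divided by the square root of F. Fits were tested on simulated data. DESeq2 1.42.0, other scalings, filters, limits, blocks and left-out libraries were alternatives. When 1 library of a group remained, its spread was taken to be that of the other groups.

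The members, gene lists and tests were chosen with earlier results of these data known. The features named in full were the 20 of highest NIP1_depl CPM, the 5 of largest ratio, those called in an enzyme contrast, the 3 nearest the limit on each side and the 3 of smallest p in each direction. Other members are given briefly so that all are accounted for. Opposite genes came from RefSeq R64 coordinates with an overlap of at least 30 nt, or from the order of systematic names. Sequences are not given, since no genome was used here.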

Additional observations from a re-analysis of the deposited data

Results flagged for a closer look

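In YPL185W, between UIP4 and MRN1, both EcFMT libraries were above both R42L libraries in NIP1_depl and below both in RLI1_depl, and the log2 effects differed by 0.75. In YHC1 (YLR298C) the libraries parted in the same way, with a log2 difference of 2.77 between the strains. The difference from RLI1_depl alone was not tested. Against the mean of the other 3 strains the effects differed by 0.91 (SE 0.32, unadjusted p = 0.00511) and 0.98 (SE 1.09), both with an adjusted p of 1 by edgeR's quasi-likelihood test.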

How the results depend on the processing

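The list of 64 features held 103 at a limit of 1.5 times, 28 at 3 times and 35 at a minimum of 80 counts, and from 42 to 65 without single libraries. The other 7 alternatives kept its size within 1.5 times. Within NIP1_depl 0 members were called under every alternative. Over all features 1 was called in a fit of only the libraries compared, 1 with a crossed replicate block, 1 with a replicate block on the NIP1_depl libraries alone, and 0 to 1 without single libraries. In RLI1_depl the 2 calls became 1 with no filter on low counts, 1 with only features absent from RefSeq, 1 with only the libraries compared, 0 with DESeq2, which gave both no adjusted p, and 0 to 2 without single libraries (1 without EcFMT replicate 1 or R42L replicate 1, 0 without R42L replicate 2). The 2 calls of the mean over 4 strains became 1 with library totals, 0 with no filter, 0 with features absent from RefSeq, 1 with DESeq2 and 0 to 2 without single libraries. The difference between NIP1_depl and the other strains gave 1 call with only the libraries compared, and 0 to 1 without single libraries, the 1 being without NIP1_depl EcFMT replicate 2. MTF minus MTFi gave 2 to 3 without single libraries, not always the same members. Of the 3 called with all libraries, YKL036C was called in all 4 such fits, YPL185W in 2 and YGL149W in 1. The causes were not tested, beyond that a left-out library lets more features past the filter.

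Effects within NIP1_depl that changed sign were not called. YHR137C-A went from 0.08 to -0.01 with library totals, to -0.02 with no filter, and ran from -0.01 to 0.12 without single libraries. YBL100W-A ran from -2.24 to 0.42 and YGL149W from -0.60 to 0.16.

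The labels do not say whether replicate numbers pair samples, and the main fit used no pairing. Deviations of same-numbered libraries correlated across 246 features at -0.37 in NIP1_depl, -0.03 in RLI1_depl, -0.10 in hrc1D, -0.23 in arf1D and -0.02 between MTF and MTFi. With the replicate block over all libraries, members called were 0 in NIP1_depl, 3 in RLI1_depl, 3 for the mean and 3 for MTF minus MTFi. A crossed block in NIP1_depl, added after seeing the data, called 0 members.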
